A study of Mus musculus with 6 samples.

Results

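The regulators of G protein signalling described here are 8 genes, Rgs1, Rgs2, Rgs3, Rgs10, Rgs14, Rgs16, Rgs18 and Rgs19, out of 22180 genes measured. They were listed as a family, with earlier results of these data known, and each was represented by an array row that carries its symbol alone. Whole-transcript microarrays were run on RNA of mouse iNKT (invariant natural killer T) cells, which are T cells that recognise lipids on CD1d; the extraction protocol in the labels speaks of frozen tissue. The groups were wild type (WT) and PLZF_ON, mice with a PLZF protein held in its acetylated state, with 3 arrays each. PLZF is the transcription factor that iNKT cells depend on. The sources used here do not give the age and sex of the mice, the organ and sorting scheme of the cells, or the promoter or allele behind the acetylated PLZF, and they name no other allele or agent for either group. Replicates 1 and 2 of each group are the 4 arrays the design text says were analysed, and replicate 3 of each group was deposited with them.

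Heterotrimeric G proteins carry the signals of chemokine, lipid and hormone receptors as long as their alpha subunit holds GTP. RGS proteins bind the active alpha subunit and speed up its hydrolysis of GTP, which ends the signal. In lymphocytes most chemoattractant receptors use the inhibitory class of alpha subunit, and RGS proteins thereby limit how long a cell responds to a chemokine or to sphingosine-1-phosphate. Rgs1, Rgs2, Rgs3, Rgs16 and Rgs18 belong to the R4 subfamily of small RGS proteins, Rgs10 and Rgs14 to the R12 subfamily, and Rgs19 to the RZ subfamily.

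PLZF_ON replicate 3 stood apart from the other arrays. Over all rows it correlated with them at 0.895 to 0.898, against 0.957 to 0.973 among the other 5, and its spread was narrower (SD of 1.79 against 1.97 to 2.01). Differences of the members are therefore given over the 4 arrays and over all 6, and the plot of differences also shows replicate 3 alone. Differences of other genes are over the 4 arrays unless stated. Of 10 T cell markers 7 were measured, Zbtb16 (PLZF) among them, and all 7 were bright (mean log2 levels from 9.79 for the dimmest to 11.01 for Cd3e). B cell markers were all dim, none of the 9 measured exceeding a mean of 5.21. This level, used below as the background, is the 95th percentile of the means of 1390 odorant (olfactory or vomeronasal) receptor genes over the 6 arrays. Taken on single arrays, this percentile was 5.05 to 5.26 on 5 of them and 5.66 on PLZF_ON replicate 3. Of the myeloid list 3 of 11 markers exceeded a mean of 5.21, and the median of that list was 4.07 to 4.29 in WT, 4.19 and 4.48 in PLZF_ON replicates 1 and 2, and 5.24 in PLZF_ON replicate 3. Single markers rose more on PLZF_ON replicate 3. There S100a8 was at 7.29 (2.61 to 3.09 on the others), S100a9 at 7.20 (3.79 to 4.29) and Lyz2 at 6.58 (3.96 to 4.48). Cd68 was instead at its lowest there (5.32). The median of markers of other T cells (3 measured) was likewise 5.02 to 5.14 on 5 arrays and 6.55 on PLZF_ON replicate 3. The NK cell markers Ncr1 and Eomes, which iNKT cells can also express, had a median of 5.20 to 6.67 in WT and 4.51 to 6.99 in PLZF_ON. The part of these signals in the values of that array was not tested. Nothing in the labels says whether replicates are separate animals, so the p-values cover the spread among these samples alone, possibly a technical spread, and the number of arrays limits the precision.

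Rgs1 was the member with the largest difference, and its log2 level was about 1.6 lower in PLZF_ON, close to 3-fold. Rgs10 and Rgs16 were higher in PLZF_ON replicates 1 and 2 by 0.79 and 0.94 on the log2 scale but not in replicate 3, while Rgs2 and Rgs3 were lower by less. Rgs14 and Rgs19 differed by no more than their spread over the 4 arrays, and Rgs18 was not above background. None of the 8 passed limma's test at an adjusted p of 0.05 over all rows, which 0.17% of 23521 tested rows did over 4 arrays and 0.0935% over 6. These 40 and 22 rows became 0 without PLZF_ON replicate 2 in either comparison, while leaving out WT replicate 2 gave 106 over 4 arrays and leaving out PLZF_ON replicate 3 gave 107 over the remaining 5. At an unadjusted p under 0.05, 4 members (Rgs1, Rgs3, Rgs10 and Rgs16) passed limma over 4 arrays, where 9.41% of all rows did. Of genes at or above the median level, where most members lie, 14.0% did. Over 6 arrays 1 member (Rgs1) passed, where 5.77% of all rows did. Over 4 arrays, 3 members lay lower on every PLZF_ON array than on every WT array (19.3% of all rows) and 2 lay higher throughout (18.9% of all rows). Over 6 arrays these counts were 2 lower (6.22% of all rows) and 0 higher (5.55% of all rows).

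**Figure D1:**
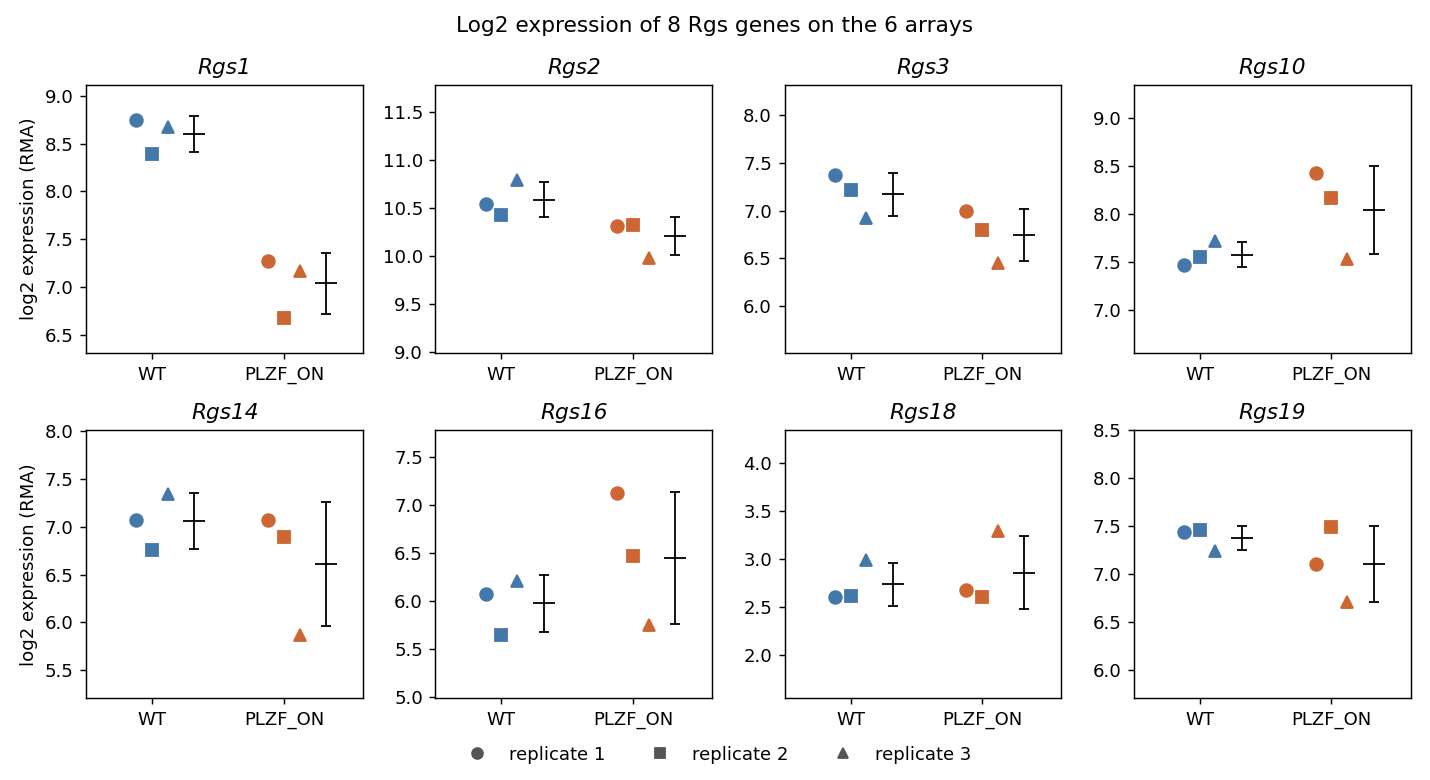
Log2 expression (RMA, vertical axis) of the 8 Rgs genes in WT and PLZF_ON, with 1 point per array, the marker shape giving the replicate number, and the bar the mean with its SD over 3 arrays; every panel spans the same log2 range. The Rgs1 points of PLZF_ON (6.68 to 7.27) all lie below those of WT (8.39 to 8.74), and in Rgs10, Rgs14 and Rgs16 the triangle of PLZF_ON replicate 3 lies apart from the other PLZF_ON points.

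Rgs1 restrains chemokine-driven migration of B and T cells and is abundant in lymphocytes that stay in tissues. Its log2 level was 8.74, 8.39 and 8.67 on WT replicates 1 to 3 and 7.27, 6.68 and 7.17 on PLZF_ON replicates 1 to 3. The groups did not overlap, and the gap between the lowest WT array and the highest PLZF_ON array was wider than the range within either group. The difference was -1.59 over the 4 arrays (SE 0.23, n = 2 arrays per group, 95% interval from -2.16 to -1.02, 3.01-fold), with a limma adjusted p of 0.0925. Over 6 arrays it was -1.56 (SE 0.20, n = 3 arrays per group, 95% interval from -2.03 to -1.09, 2.95-fold), with a limma adjusted p of 0.0584. In replicate 3 alone, which the 4-array comparison does not use, the difference was -1.5, without a replicate check. By size, the Rgs1 difference lay at percentile 99.5 of all rows over 4 arrays and 99.6 over 6. The limma call changed with the arrays and rows used, while the direction did not, and with an array left out the difference ran from -1.88 to -1.29 over 4 arrays and from -1.67 to -1.38 over 6. Without PLZF_ON replicate 3 the adjusted p over the remaining 5 arrays was 0.0313, and without WT replicate 1 it was 0.349. Testing the brighter rows alone over 6 arrays gave 0.0488. Because RNA was taken from pools of cells, fewer cells that express a gene and less RNA per cell cannot be told apart for Rgs1 or any gene below.

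Markers of the NKT1 subset, the interferon-gamma producers, moved with Rgs1. All 10 were measured, all 10 lay above background, and all 10 had a lower mean in PLZF_ON over the 4 arrays. Ccl5 on PLZF_ON replicate 1 (10.69) nevertheless exceeded its values on WT replicates 1 and 2 (10.29 and 10.40). Their median log2 level was 10.35, 10.03 and 10.08 on WT replicates 1 to 3 and 8.77, 7.18 and 8.05 on PLZF_ON replicates 1 to 3. Within each group the array with the lowest Rgs1 value, WT replicate 2 and PLZF_ON replicate 2, also had the lowest NKT1 median. In WT the gap was small, with 10.03 on replicate 2 and 10.08 on replicate 3. NKT17 markers, those of the interleukin-17 producers, were lower too over the 4 arrays for all 6 measured. Their medians were 6.06 to 7.30 in WT and 4.50 to 4.78 in PLZF_ON. Within WT the NKT17 median was highest, not lowest, on replicate 2. The same held within PLZF_ON, but there all medians were under background, where an order of arrays says little. Within PLZF_ON the median of the NK cell markers Ncr1 and Eomes was also lowest on replicate 2 (4.51, against 6.99 and 6.93 on replicates 1 and 3). Within WT that median was lowest on replicate 1 (5.20). All these orders rest on 3 arrays per group, and the part of subset or NK cell markers in the Rgs1 difference was not tested.

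**Figure D2:**
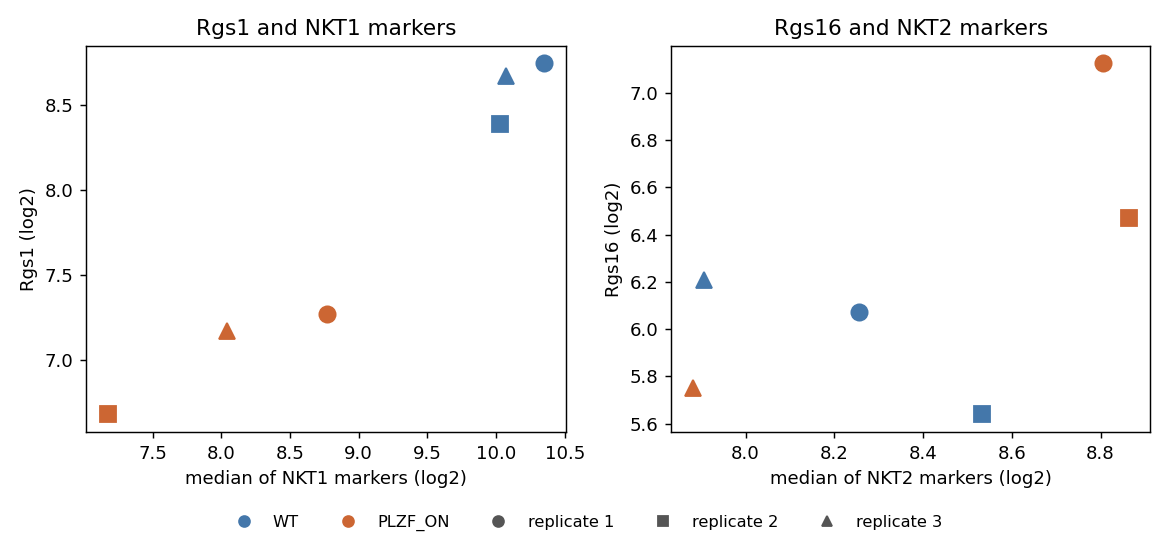
Left, Rgs1 log2 level (vertical axis) against the median log2 level of 10 NKT1 markers (horizontal axis); right, Rgs16 against the median of 8 NKT2 markers; 1 point per array, colour for the group and shape for the replicate number. WT lies at the upper right of the left panel (NKT1 medians of 10.03 to 10.35) and PLZF_ON at the lower left (7.18 to 8.77), and in the right panel PLZF_ON replicate 3 lies beside the low NKT2 end (7.88).

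Genes with the profile most like Rgs1 over the 6 arrays were sought among 1785 brighter and variable genes. The closest were Dennd4a, an exchange factor for Rab GTPases (Pearson r = 0.996), Nkg7, a granule membrane protein of cytotoxic cells (0.995), and St3gal6, a sialyltransferase (0.991). Nkg7 was at 10.47, 10.19 and 10.46 on the WT arrays and 8.91, 8.25 and 9.02 on the PLZF_ON arrays, and is itself among the NKT1 markers, a list that also shares Cxcr3 with the receptors below and Il2rb with the T cell markers. These coefficients describe 6 arrays that differ by group, and 93 of the 1785 genes had an r over 0.9 with Rgs1.

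In the mouse gene table of assembly GRCm38.p6, Rgs2, Rgs13, Rgs1, Rgs21 and Rgs18 follow each other on chromosome 1 with no other protein-coding gene between them. Of this run only Rgs1 and Rgs2 exceeded background. Both were lower on every PLZF_ON array than on any WT array, which held for 6.22% of all rows. For Rgs2 the gap was narrow, with 10.43 on WT replicate 2 and 10.32 on PLZF_ON replicate 2 (limma adjusted p = 0.9 over 6 arrays). Rgs13 lay between 2.92 and 3.73 on the 6 arrays, Rgs21 between 3.48 and 4.33, and Rgs18, which is known from platelets and their precursors, between 2.60 and 3.29. Of the platelet markers 3 of 10 exceeded background, the brightest being the integrin chain Itgb3, and the list's median was 4.46 to 4.89 on the 6 arrays. At such levels a difference between the groups was not detectable for Rgs18 (0.03 over 4 arrays, SE 0.13, and 0.12 over 6, SE 0.23). Rgs16 lies elsewhere on chromosome 1, next to Rgs8, which was also dim (4.67 to 5.14).

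Rgs2 acts mainly on the Gq class of alpha subunits, unlike most R4 members, which act on Gi and Gq alike. Its brighter row was at 10.55, 10.43 and 10.80 on WT replicates 1 to 3 and 10.32, 10.32 and 9.98 on PLZF_ON replicates 1 to 3. The groups did not overlap, but PLZF_ON replicates 1 and 2 lay only just below WT replicate 2, and the lowest value was that of PLZF_ON replicate 3. The difference was -0.17 over 4 arrays (SE 0.13, limma adjusted p = 0.809) and -0.38 over 6 (SE 0.18, limma adjusted p = 0.9), and in replicate 3 alone it was -0.82. A second row of the gene read 9.97, 9.94 and 10.51 in WT and 9.47, 9.59 and 9.73 in PLZF_ON, again without overlap. Its difference was -0.43 over 4 arrays (SE 0.13, limma adjusted p = 0.376) and -0.54 over 6 (SE 0.20, limma adjusted p = 0.736). Both rows thus ran the same way, and the row that was not used for the gene gave the larger difference over the 4 arrays.

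Rgs3, another R4 protein that exists in several isoforms of different length, was at 7.37, 7.21 and 6.92 on WT replicates 1 to 3 and 6.99, 6.79 and 6.45 on PLZF_ON replicates 1 to 3. WT replicate 3 lay just below PLZF_ON replicate 1, so the groups overlapped over 6 arrays and not over 4. The differences were -0.40 over 4 arrays (SE 0.15, limma adjusted p = 0.468), -0.42 over 6 (SE 0.20, limma adjusted p = 0.906) and -0.47 in replicate 3 alone. Rgs3 and Rgs1 were thus the members whose differences were nearly the same in size on the arrays the study analysed and on those it did not.

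Rgs16 is induced when T cells are activated and limits responses through Gi and Gq. It was at 6.07, 5.64 and 6.21 on WT replicates 1 to 3 and 7.12, 6.47 and 5.75 on PLZF_ON replicates 1 to 3. PLZF_ON replicates 1 and 2 lay above every WT array and replicate 3 lay within the WT range, just above that array's own background of 5.66. Over the 4 arrays the difference was 0.94 (SE 0.26, 95% interval from 0.31 to 1.57, 1.92-fold, limma adjusted p = 0.302). Over 6 arrays it was 0.48 (SE 0.34, 95% interval from -0.31 to 1.26, limma adjusted p = 0.941), and in replicate 3 alone it was -0.46. Rgs10, a small R12 protein abundant in leukocytes, had the same pattern. It was at 7.46, 7.55 and 7.72 on WT replicates 1 to 3 and 8.43, 8.16 and 7.54 on PLZF_ON replicates 1 to 3. The replicate 3 value of PLZF_ON again lay within the WT range. The Rgs10 difference was 0.79 over 4 arrays (SE 0.15, 95% interval from 0.43 to 1.16, 1.73-fold, limma adjusted p = 0.152) and 0.47 over 6 (SE 0.24, 95% interval from -0.09 to 1.02, limma adjusted p = 0.940). In replicate 3 alone the Rgs10 difference was -0.18, without a replicate check.

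The median of 8 NKT2 markers, those of the interleukin-4 producers, was 8.26, 8.53 and 7.91 on WT replicates 1 to 3 and 8.81, 8.86 and 7.88 on PLZF_ON replicates 1 to 3, so that PLZF_ON replicate 3 did not stand above WT there either. Apart from that the orders differed, since within WT the array with the highest NKT2 median, replicate 2, had the lowest Rgs16 value. All 8 were higher in PLZF_ON over the 4 arrays, and these 8 include Zbtb16, the gene of PLZF itself, and Ccr7, which is also among the receptors below. Among the 3 genes most like Rgs16 over the 6 arrays was Il6ra, an interleukin-6 receptor chain that is also in the NKT2 list (r = 0.932), beside Tma16 (0.934) and the MHC class II chaperone gene H2-Oa (0.929). Only 6 of 1785 genes had an r over 0.9 with Rgs16. The part of NKT2 markers in the Rgs16 and Rgs10 values was not tested.

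**Figure D3:**
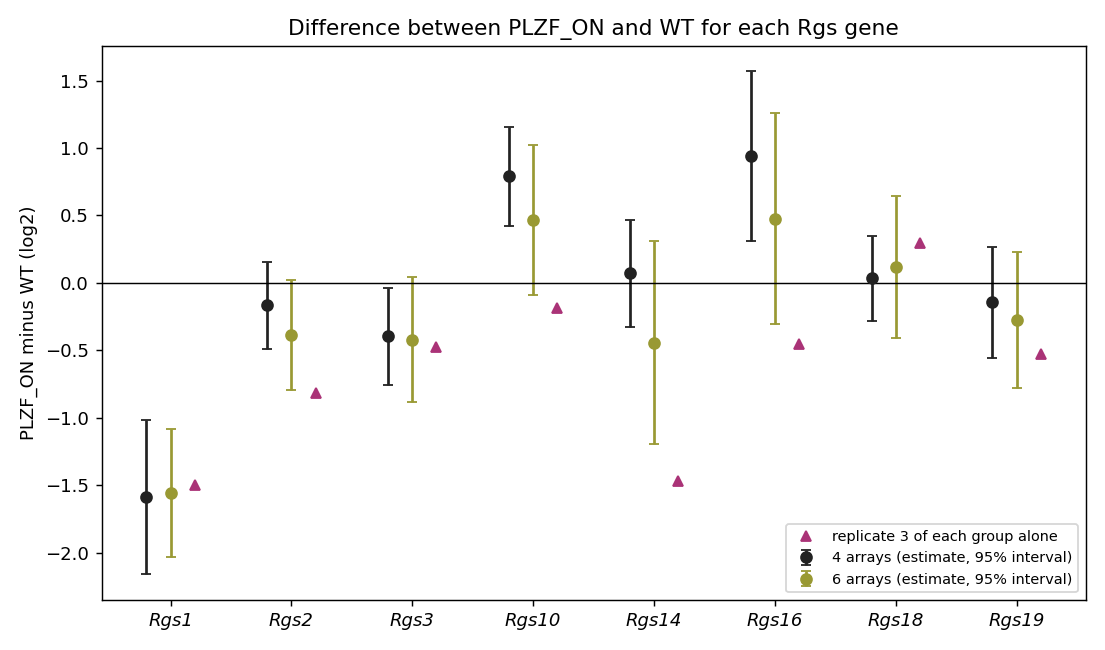
Difference between PLZF_ON and WT on the log2 scale (vertical axis) for each Rgs gene, over 4 arrays (black) and over 6 arrays (olive) with 95% intervals from limma, and for replicate 3 of each group alone (triangle, no interval). Rgs1 lies near -1.5 or below in all 3, whereas the triangles of Rgs10 (-0.18) and Rgs16 (-0.46) lie on the other side of 0 from the 4-array estimates.

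Sequences just upstream of the start site are shown for Rgs10 and Rgs16, which were higher on PLZF_ON replicates 1 and 2, and for Rgs2, which was not, so that they can be read side by side. These are the members with a single start in the RefSeq promoter table, which lists 2 for Rgs3 and 3 for Rgs19 and holds 0 entries for Rgs1, Rgs14 and Rgs18. The Rgs2 difference over the 4 arrays had a 95% interval that included 0 in its brighter row (-0.49 to 0.15). Its second row was lower, at -0.43 (SE 0.13, limma unadjusted p = 0.0173, adjusted p = 0.376). The sequences are the 250 bases before the annotated start, 5′ to 3′ on the gene's strand, from RefSeq (GRCm38.p6). They lie at chr1:144004150-144004399 on the minus strand for Rgs2, chr7:128418173-128418422 on the minus strand for Rgs10 and chr1:153740103-153740352 on the plus strand for Rgs16. Capitals mark matches on either strand to the core of the cAMP response element (TGACG) or to the GC box bound by Sp1-type factors (GGGCGG).
Rgs2: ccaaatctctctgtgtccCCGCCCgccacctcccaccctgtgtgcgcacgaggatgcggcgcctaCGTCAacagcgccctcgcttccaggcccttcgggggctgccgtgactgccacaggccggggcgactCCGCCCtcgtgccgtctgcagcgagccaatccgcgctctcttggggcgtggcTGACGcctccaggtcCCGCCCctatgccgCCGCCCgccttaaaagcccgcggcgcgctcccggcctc
Rgs10: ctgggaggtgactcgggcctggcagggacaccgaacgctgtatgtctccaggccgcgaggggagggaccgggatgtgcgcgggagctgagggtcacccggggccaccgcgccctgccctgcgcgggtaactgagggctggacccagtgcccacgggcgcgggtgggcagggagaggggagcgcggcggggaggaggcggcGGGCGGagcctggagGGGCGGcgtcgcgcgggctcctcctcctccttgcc
Rgs16: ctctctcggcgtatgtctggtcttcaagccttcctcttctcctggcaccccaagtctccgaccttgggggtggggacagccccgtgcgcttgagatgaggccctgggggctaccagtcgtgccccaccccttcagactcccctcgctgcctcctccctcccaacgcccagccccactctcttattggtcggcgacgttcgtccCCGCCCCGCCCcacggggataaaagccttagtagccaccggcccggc

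The Rgs2 window held 2 cAMP response element cores, at 185 to 181 and 67 to 63 bases before the start, and the Rgs10 and Rgs16 windows held 0. This core was present in 17.8% of 32851 RefSeq promoter windows of the same length. GC boxes were found in all 3 windows, 4 in Rgs2 and 2 each in Rgs10 and Rgs16, against 32.7% of all windows with at least 1. G and C made up 72.4% of the letters in the Rgs2 window, 76.4% in Rgs10 and 66.4% in Rgs16. The shares over all windows given here do not take this content into account. The letters of an AP-1 site (TGANTCA, in 6.75% of windows) and of the NFAT core (GGAAA, in 55.6% of windows) were not in any of the 3. Matches of different motifs did not overlap, and the 2 GC boxes of Rgs16 share a base. A match describes letters only, and binding was not measured.

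Rgs14 joins an RGS domain to binding sites for Ras-type GTPases and for inactive alpha subunits. It was at 7.07, 6.76 and 7.34 on WT replicates 1 to 3 and 7.07, 6.90 and 5.87 on PLZF_ON replicates 1 to 3. The 4 arrays overlapped (difference 0.07, SE 0.16, 95% interval from -0.33 to 0.47, limma adjusted p = 0.955). Only PLZF_ON replicate 3 was low, and the 6-array difference of -0.44 (SE 0.32, limma adjusted p = 0.941) had the opposite sign and rested on that array, since without it the value was -0.07. The Rgs14 value on that array was close to the array's own background of 5.66. The profile most like Rgs14 was that of Col10a1 (r = 0.998), which was at 5.14 on PLZF_ON replicate 3 and 6.50 to 7.27 on the other 5 arrays. Snord92 (0.993) and Rnf14 (0.987) followed. In all, 270 of 1785 genes had an r over 0.9 with Rgs14, many more than with Rgs16.

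Rgs19, also called GAIP, acts on the Gi class of alpha subunits. It was at 7.44, 7.46 and 7.24 on WT replicates 1 to 3 and 7.11, 7.50 and 6.71 on PLZF_ON replicates 1 to 3. PLZF_ON replicate 2 was the highest of all arrays and replicate 3 the lowest, so that the spread within PLZF_ON (SD 0.39, n = 3) exceeded the difference between the groups. That difference was -0.14 over 4 arrays (SE 0.17, 95% interval from -0.56 to 0.27, limma adjusted p = 0.888) and -0.27 over 6 (SE 0.22, limma adjusted p = 0.941), and in replicate 3 alone it was -0.53.

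The rest of the family was dim. Of 14 other RGS genes, 1, Rgs11, exceeded background, with levels from 5.34 to 5.80 over the 6 arrays. Over 4 arrays the difference of Rgs11 was -0.17 (SE 0.15, limma adjusted p = 0.838), and that of Rgs9, a retinal and striatal family member whose mean was just under background, was -0.18 (SE 0.14, limma adjusted p = 0.797). Of the 14, 0 passed limma at an adjusted p of 0.05 or at an unadjusted p of 0.05 over 4 arrays, where 9.19% of all 22180 genes passed the latter. Over these arrays 3 were higher and 11 lower (median -0.13), against 10891 higher and 11289 lower of all genes (median -0.004). At levels this dim, such counts say little about the family. Over 6 arrays the median of these mostly dim genes was -0.004, against 0.026 over all genes.

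The alpha subunits are the substrates of RGS proteins. Of 16 alpha subunit genes 8 exceeded background, 0 passed limma's adjusted threshold over 4 or 6 arrays, and 1, Gnal, which was dim, had an unadjusted p under 0.05 over 4 arrays (6.25% of the list, against 9.19% of all genes and 14.0% of genes at or above the median level). Gnai2, the main inhibitory alpha subunit of lymphocytes, was at 9.92, 9.85 and 9.79 on the WT arrays and 9.99, 9.93 and 9.16 on the PLZF_ON arrays. Gnai2 thus lay close together on all arrays but PLZF_ON replicate 3, which was lower. Of the 4 brighter alpha subunit genes with the smallest p, the differences were 0.28 for Gna12, 0.25 for Gnai3, -0.43 for Gna11 and -0.32 for Gna15 (limma adjusted p from 0.604 to 0.807). Gna11, an alpha subunit of the Gq class, was at 7.70, 7.45 and 7.55 on the WT arrays and 6.67, 7.63 and 5.64 on the PLZF_ON arrays. Its PLZF_ON replicates 1 and 3 lay below every WT array and replicate 2 within the WT range, and its 6-array difference was -0.92 (limma adjusted p = 0.906). The replicate 3 value lay just under that array's own background of 5.66. Of 15 beta and gamma subunit genes, 0 passed the adjusted threshold in limma, and 3 were higher and 1 lower at an unadjusted p under 0.05 (26.7% of the list). Gngt2, a gamma subunit, was lower by 0.67 (SE 0.15, limma adjusted p = 0.229) and by the same amount in replicate 3. Gng12 and Gnb4 were 0.64 and 0.40 higher over 4 arrays, with -0.27 and -0.23 in replicate 3 alone.

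Receptors that signal through G proteins held the widest differences of the pathway. Of 37 measured chemoattractant and lipid receptor genes, 6 were higher and 10 lower at an unadjusted p under 0.05 over 4 arrays (43.2% of the list, beside 9.19% of all genes and 14.0% of the brighter ones), and 0 passed limma's adjusted threshold. This list, like those of the subunits, effectors and other regulators, was chosen with earlier results of these data known. Such shares therefore describe the lists and test nothing. Ccr8, a chemokine receptor of skin-homing and type 2 T cells, was at 9.56, 9.48 and 9.06 in WT and 6.90, 7.97 and 6.32 in PLZF_ON (difference -2.08, SE 0.33, limma adjusted p = 0.105). S1pr1, the sphingosine-1-phosphate receptor that lets lymphocytes leave tissues, went the opposite way. It was at 7.25, 7.62 and 6.58 in WT and 8.64, 8.71 and 8.26 in PLZF_ON (difference 1.24, SE 0.17, limma adjusted p = 0.0750). The homing receptors Ccr7 and Ccr9 were 1.25 and 1.19 higher (limma adjusted p of 0.0986 and 0.124). S1pr1, Ccr7 and Ccr9 were higher, and Ccr8 and Rgs1 lower, on every PLZF_ON array than on any WT array. Such separation over 6 arrays held for 5.55% of all rows as higher and 6.22% as lower. These 4 receptors had been picked by their small p over 4 of the same arrays. Other receptors of the list did not overlap either, among them Cxcr4 and Ptgir as higher and Cxcr3, Cxcr6 and Ccr2 as lower.

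Among 27 effector genes downstream of G proteins, 2 were higher and 6 lower at an unadjusted p under 0.05 (29.6% of the list, beside the same 9.19% and 14.0%), and 0 passed limma's adjusted threshold. Adcy6, an adenylyl cyclase that makes cyclic AMP and is inhibited by Gi, was 0.95 higher (SE 0.17, limma adjusted p = 0.138). The cyclic AMP phosphodiesterases Pde7a, Pde3b and Pde4a, which degrade it, were 0.84, 0.62 and 0.47 lower (limma adjusted p from 0.178 to 0.312). Other genes of these families did not share these directions, with 0.16 for Pde4b, 0.07 for Pde4d and -0.21 for the cyclase Adcy7, all 3 chosen after their values were seen. Each of these 4 kept its direction in replicate 3 alone, with 0.60 for Adcy6 and -0.72, -1.21 and -0.67 for the phosphodiesterases, and in none did the groups overlap over 6 arrays, which held for 5.55% of all rows as higher and 6.22% as lower; the 4 had been picked by their small p over 4 of these arrays. Of 15 receptor kinases, arrestins and other G protein regulators, 2 were higher at an unadjusted p under 0.05 (13.3% of the list) and 0 passed limma's adjusted threshold. Ric8b, a chaperone of alpha subunits, was 0.60 higher (SE 0.14, limma adjusted p = 0.242) over 4 arrays and -0.48 in replicate 3. Ric8a was 0.44 lower, and Arrb2 and Grk6, which end receptor signalling upstream of RGS proteins, were 0.36 and 0.21 higher (limma adjusted p from 0.592 to 0.764, none with an unadjusted p under 0.05). In replicate 3 alone the values were 0.07 for Ric8a and -0.28 for Arrb2, both of the opposite sign, and 0.56 for Grk6.

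**Figure D4:**
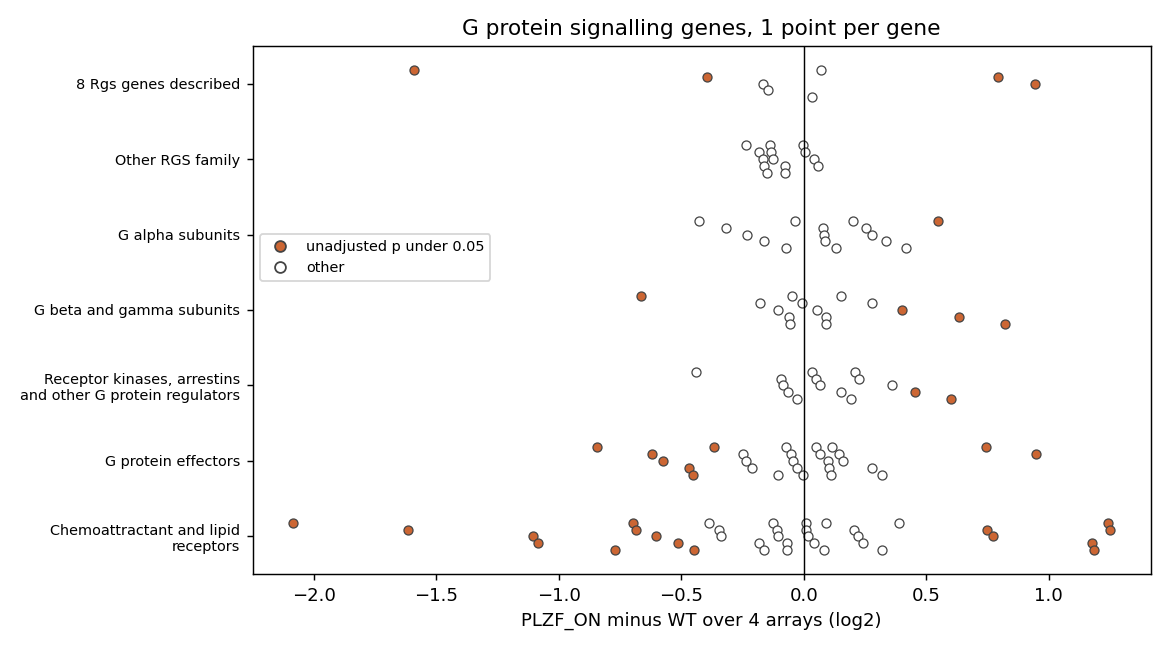
Difference between PLZF_ON and WT over 4 arrays (log2, horizontal axis) for the 8 Rgs genes and for 6 groups of G protein signalling genes, with 1 point per gene and filled points where limma's unadjusted p was under 0.05. The other RGS genes cluster near 0 (median -0.13), while receptors spread furthest, with Ccr8 at -2.08 and Ccr7 at 1.25.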

How the data were processed

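The deposited log2 values (1 row per array feature) were made by the authors from biotin-labelled targets on Affymetrix arrays, per the labels' protocols, and by RMA, which the submitters' processing notes name with no version given. RMA as a rule subtracts background, equalises array distributions and summarises probes, and it compresses changes of dim genes. The deposited distributions were not equal. PLZF_ON replicate 3 had a median of 5.01 and an SD of 1.79, and the other arrays had medians of 4.88 to 4.92. Genome build and array annotation: not given in the sources. No further scaling was applied. Of 41345 rows, 23521 with exactly 1 gene symbol were tested, 1814 with several symbols and 16010 unlisted rows were not. For genes with several rows (1082) the brightest row by its 6-array mean stands for the gene.

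Groups came from the sample titles. limma 3.58.1 in R 4.3.3 (lmFit, eBayes, two-sided, genotype as the only term) was fitted to all 23521 rows and adjusted by Benjamini-Hochberg at 0.05, over 4 and over 6 arrays. It was tested on simulated data. The members and lists were chosen with earlier results of these data known. Genes named beside the members were, per list, up to 4 with the smallest p at or above the median level, and the 3 genes most like each member with an SD of at least 0.5 over 6 arrays. Gnai2, Gnal, Rgs13, Rgs21 and Rgs8, and the receptor percentile used as background, were chosen after values were seen. Figures were drawn with matplotlib 3.10.9. Alternatives were re-scaling, other row sets, a variance trend, the replicate number as a block, a gene's mean row, another threshold and leaving out each array.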

Additional observations from a re-analysis of the deposited data

How the results depend on the processing

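Under the settings other than leaving out an array, each of the 8 genes kept its direction within the 4-array and within the 6-array comparison. The only limma calls that changed were those of Rgs1, which passed with the replicate number as a block (adjusted p = 0.0303 over 4 arrays and 0.0405 over 6) and among brighter rows over 6 arrays (0.0488). Its adjusted p over these settings ran from 0.0303 to 0.397 over 4 arrays and from 0.0405 to 0.239 over 6. Same-numbered arrays deviated together only weakly (0.13 over 4 arrays, and 0.09, 0.25 and 0.24 over 6), so the numbers were not taken as pairs, and the replicate block gave 101 called rows over 4 arrays against 40 without it. The count over 4 arrays was 0 when all deposited rows were tested, 135 at an adjusted p of 0.10, and 0 (without PLZF_ON replicate 2) to 106 (without WT replicate 2) with an array left out. Over 6 arrays the count was 22, with 5 after median centring, 0 with all deposited rows, 46 at an adjusted p of 0.10, and, with an array left out, 0 (without WT replicate 1, WT replicate 2 or PLZF_ON replicate 2), 1 (without WT replicate 3), 6 (without PLZF_ON replicate 1) or 107 (without PLZF_ON replicate 3). The cause was not tested. With an array left out, Rgs1 ranged from -1.88 to -1.29 over 4 arrays and from -1.67 to -1.38 over 6, Rgs10 from 0.66 to 0.92 and from 0.27 to 0.72, and Rgs16 from 0.62 to 1.27 and from 0.14 to 0.83. Directions changed for Rgs14 (-0.084 to 0.224), Rgs18 (-0.008 to 0.074) and Rgs19 (-0.338 to 0.0485) over 4 arrays and for Rgs18 (-0.096 to 0.251) over 6. Rgs18 has no value among brighter rows, since it is too dim.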
